A study of Mus musculus with 6 samples.

Results

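The SLC25 family holds the mitochondrial carriers, the inner-membrane proteins that move metabolites, nucleotides, cofactors and ions between the cytosol and the mitochondrial matrix. Its members were taken as every gene whose symbol is Slc25a followed by a number, and 47 of the 23282 gene rows met this rule. The rule leaves out family members with other names, such as the uncoupling proteins. RNA of brown adipose tissue (BAT) from 3 wild-type (WT) and 3 Letmd1 knockout (Letmd1 KO) mice had been sequenced by QuantSeq, a 3′-end method in which a gene's count does not scale with transcript length. All 6 mice were C57BL/6N males of 5 weeks. The knockout is a whole-body knockout-first allele derived from 1 embryonic stem cell clone, with a lacZ and neomycin cassette ahead of the floxed exons 3 and 4, so the loss of Letmd1, which encodes a mitochondrial matrix protein, was not limited to brown adipocytes. The comparison asks which carrier transcripts differ in BAT without Letmd1.

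Totals ranged from 6669577 to 14574273 counts per mouse, and levels are given as CPM, counts brought to a common library size with edgeR's TMM factors. Letmd1 itself had 5658, 6490 and 5266 counts in the WT mice and 0, 0 and 1 in the KO mice, as the labels require. Brown adipocyte markers summed to between 12090 and 13120 CPM in WT BAT and between 1712 and 2810 CPM in KO BAT, with 7 of 8 lower. Macrophage markers summed to between 180.2 and 251 CPM in WT and between 1502 and 3658 CPM in KO, with 12 of 12 higher and the highest sum in KO mouse 2. Skeletal muscle markers summed to 9.38, 404 and 7.04 CPM in WT mice 1 to 3 and to 428, 308 and 1240 CPM in KO mice 1 to 3. Schwann cell and nerve markers were higher for 6 of 8 (307 to 330 against 438 to 608 CPM). Of 8 endothelial markers 3 were lower and 5 had no call (580 to 695 against 382 to 503 CPM). Of the general adipocyte markers 4 of 6 were lower (37150 to 41680 against 18940 to 23970 CPM), with KO mouse 2 the highest of the KO mice. None of 6 erythroid markers passed the test (9964 to 18520 against 10000 to 13670 CPM). No marker was at 0 in all WT mice. Lower and higher in these counts mean calls by the edgeR test described below, where 22.3% of all genes were lower and 23.7% higher. At 100 CPM or more, 46.5% of genes were lower and 19.1% higher. Between 20 and 100 CPM these shares were 28.7% and 19.9%, and under 20 CPM 10.6% and 27.9%. In bulk tissue, fewer cells of a type and less RNA per cell cannot be told apart.

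Carriers share a fold of repeated membrane-spanning modules around a central binding site, are made in the cytosol and reach the inner membrane through the TIM22 translocase. In brown adipocytes they bring in the fuel and the cofactors that the respiratory chain and the citric acid cycle use. They carry acylcarnitines for fatty acid oxidation, branched-chain amino acids for catabolism, citrate out to the cytosol for fatty acid synthesis, and adenine nucleotides and phosphate for ATP synthesis.

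The carriers lie on 19 chromosomes. The 250 bases ahead of the annotated start are given here for the 2 most lowered and the 2 most raised carriers with an entry in the RefSeq promoter table of GRCm38.p6, because promoter sequence is a feature that the choice of the family did not use. Each is written 5′ to 3′ on the gene's strand, with capitals marking a match to 1 of 7 motifs searched on both strands. Slc25a1, the citrate carrier, is read from chr16:17928220-17928469 (minus strand), Slc25a20, the carnitine-acylcarnitine carrier, from chr9:108661886-108662135 (plus strand), Slc25a24, a calcium-regulated ATP-Mg/phosphate carrier, from chr3:109122899-109123148 (plus strand), and Slc25a12, the aspartate/glutamate carrier Aralar, from chr2:71367756-71368005 (minus strand).
Slc25a1: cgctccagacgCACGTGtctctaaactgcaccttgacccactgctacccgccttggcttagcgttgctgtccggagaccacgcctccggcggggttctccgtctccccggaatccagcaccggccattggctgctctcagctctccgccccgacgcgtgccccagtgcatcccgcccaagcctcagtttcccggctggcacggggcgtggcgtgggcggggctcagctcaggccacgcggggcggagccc
Slc25a20: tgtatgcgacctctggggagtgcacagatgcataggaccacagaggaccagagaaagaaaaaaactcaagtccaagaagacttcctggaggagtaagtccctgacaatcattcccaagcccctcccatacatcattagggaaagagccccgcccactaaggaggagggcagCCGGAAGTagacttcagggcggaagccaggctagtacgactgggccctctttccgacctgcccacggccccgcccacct
Slc25a24: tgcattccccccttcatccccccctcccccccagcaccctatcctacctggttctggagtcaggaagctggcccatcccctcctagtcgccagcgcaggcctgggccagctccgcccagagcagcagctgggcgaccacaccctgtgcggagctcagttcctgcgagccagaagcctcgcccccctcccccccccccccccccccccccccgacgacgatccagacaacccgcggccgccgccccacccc
Slc25a12: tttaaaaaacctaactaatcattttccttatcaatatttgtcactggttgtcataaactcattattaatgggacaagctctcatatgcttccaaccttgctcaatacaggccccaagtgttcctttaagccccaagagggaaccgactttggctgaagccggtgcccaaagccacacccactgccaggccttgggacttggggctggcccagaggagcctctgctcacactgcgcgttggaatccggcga

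The Slc25a1 window holds an E-box (CACGTG) that begins 239 bases before the start, and the Slc25a20 window holds a GABPA motif (CCGGAAGT) that begins 79 bases before it. The windows of Slc25a24 and Slc25a12 hold none of the motifs, but that of Slc25a34, also raised, holds an estrogen-related receptor motif 119 bases before its start. The printed windows were picked by fold change, and the presence of a motif did not divide lowered from raised carriers. Of the 47 carriers, 36 matched the table, through 46 starts. The E-box was in 8 of these 46 windows (17.4%), against 6.02% of all promoters of that length, and lay in Slc25a1, Slc25a13, Slc25a14, Slc25a15, Slc25a31, Slc25a33 and Slc25a36. These carriers did not move as 1 group, since Slc25a1 and Slc25a15 were lower, Slc25a14, Slc25a33 and Slc25a36 had no call and Slc25a13 and Slc25a31 did not pass the filter on low counts. The other motifs were in at most 2 carrier windows each. They were the cyclic AMP response element (TGACGTCA, 2 windows, 1.55% of all promoters), the NRF1 motif (GCATGCGC, 2 windows, 2.26%), the estrogen-related receptor motif (AAGGTCA, 1 window, 4.08%), GABPA (1 window, 2.88%), the sterol response element (TCACNCCAC, 1 window, 1.05%) and the C/EBP-ATF composite site (TGATGNAA, 0 windows, 3.45%). No motif is contained in another, and a match describes letters only.

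Summed over the 47 members taken here, carrier transcripts were less abundant in KO BAT. The summed level of all carriers was 7624, 7577 and 7124 CPM in the WT mice and 3901, 3793 and 4049 CPM in the KO mice, so the genotypes did not overlap and the WT sum was 1.90 times the KO sum. Of the 36 carriers that passed edgeR's filter on low counts, 16 were lower (44.4%, against 22.3% of all 12995 genes tested) and 6 were higher (16.7%, against 23.7%) where called means an edgeR quasi-likelihood p under 0.05 after Benjamini-Hochberg adjustment. Either way, 46.0% of all genes were called. Of these 22 carriers, 11 were lower and 4 higher by at least 2-fold, where the shares among all genes were 8.84% and 14.6%. KO values lay wholly below WT values for 18 tested carriers (27.2% of all genes) and wholly above them for 7 (30.1% of all genes), and the other 11 overlapped, where 57.3% of all genes did not overlap in one direction or the other. All 22 carriers past the threshold were among those without overlap, but calls and ranges rest on the same values and are not separate evidence. The median log2 fold change was -0.43 over the carriers and 0.03 over all genes tested. With libraries scaled by their size alone the same medians were -0.01 and 0.45, and the calls became 12 carriers lower and 10 higher against 10.5% and 45.4% of all genes. Without WT mouse 2, the count of higher carriers fell to 3, and 19.1% of all genes were then higher.

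Direction went with the level of the carrier. Of 13 carriers with a mean of at least 100 CPM over the 6 mice, 9 were lower and 0 higher, where 46.5% of all genes at that level were lower and 19.1% higher. Between 20 and 100 CPM, 6 of 11 carriers were lower and 3 higher, against 28.7% and 19.9% of genes. Under 20 CPM, 1 of 12 was lower and 3 were higher, against 10.6% and 27.9%. Across the 36 carriers, Spearman's rho between mean level and log2 fold change was -0.48, given as a description, since the carriers share the same 6 libraries and abundant genes in general were more often lower.

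**Figure D1:**
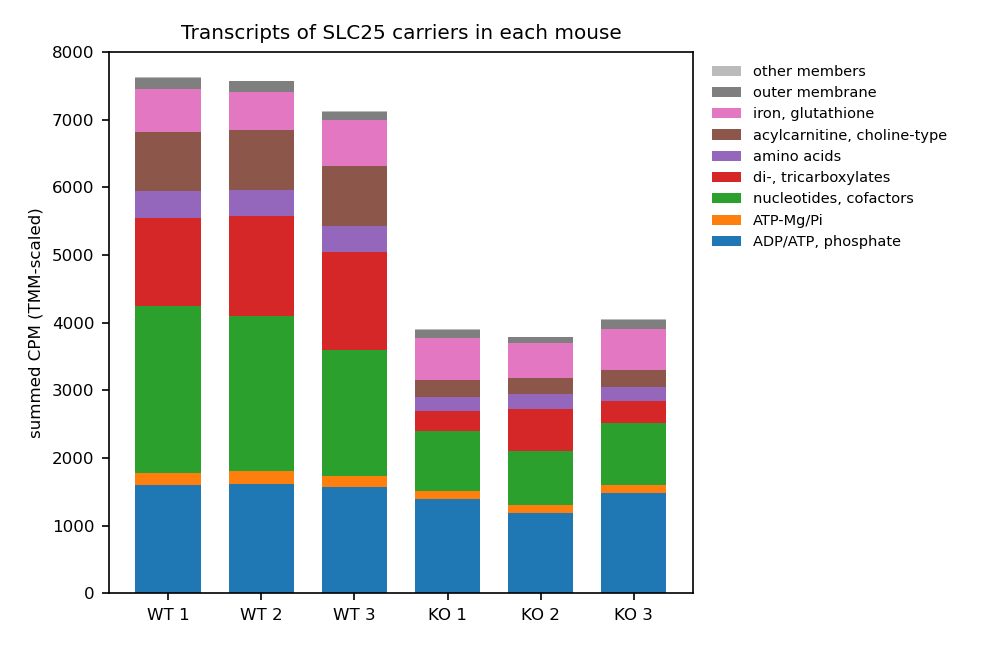
Summed TMM-scaled CPM of the SLC25 carriers in each of the 6 mice (bars, from 0), divided by substrate group. The 3 WT bars reach between 7124 and 7624 CPM and the 3 KO bars between 3793 and 4049 CPM, with the ADP/ATP and phosphate block at 1598 CPM in WT and 1356 CPM in KO on average.

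The carriers did not fall in proportion, and their shares of the summed level are given as a description. Slc25a51, the NAD carrier, was the most abundant member in WT BAT (16.2% of all carrier transcripts) and held 11.9% in KO. Slc25a1 went from 14.1% to 4.52% and Slc25a20 from 11.7% to 6.22%. Slc25a3, the phosphate carrier, ranked 8 in WT with 6.52% and 1 in KO with 12.9%, and Slc25a4, the ADP/ATP carrier of heart and muscle, went from 8.43% to 12.5%. At the top of the WT order Slc25a51 and Slc25a1 overlapped between mice, and in KO the first 4 members (Slc25a3, Slc25a4, Slc25a39 and Slc25a51) overlapped as well. Members with no call that are named here and below were chosen after their values were seen. Shares and folds are relative, so a member whose share rose need not have risen in level.

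**Figure D2:**
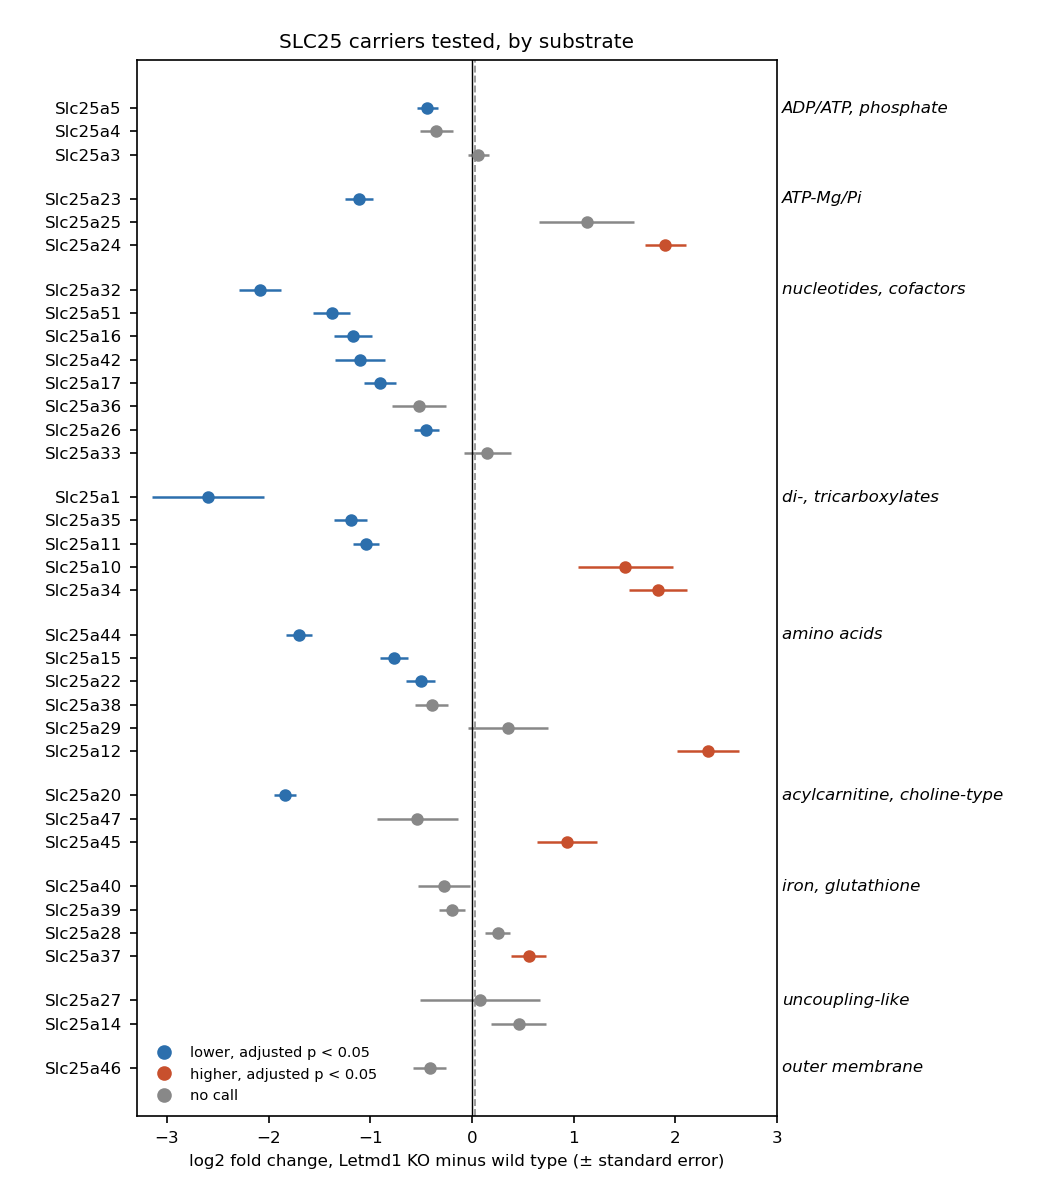
Log2 fold change of 35 tested carriers, KO minus WT, with its standard error (horizontal bars), grouped by substrate; the dashed line is the median of all genes tested (0.03). The nucleotide and cofactor group lies mostly to the left, and the 6 raised carriers lie in 5 different groups.

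The nucleotide and cofactor carriers made up the largest share of the family in WT BAT (29.6%, and 22.4% in KO). Of these, 7 of 9 were called lower, 0 higher and 2 had no call, where 22.3% of all genes were lower and 23.7% higher. Their summed level was 2467, 2287 and 1864 CPM in WT and 892, 807 and 929 CPM in KO, without overlap. Slc25a51, which brings NAD into the matrix (chromosome 4, 45395923 to 45408766, minus strand, GRCm38), had 1459, 1279 and 886 CPM in WT and 479.6, 431 and 482 CPM in KO. WT mouse 3 was the lowest of its genotype and still above every KO mouse, and the mean fell from 1208 ± 293 to 464 ± 28.6 CPM (SD, n = 3), a log2 fold change of -1.38 ± 0.18 (SE; adjusted p = 0.00028, edgeR with Benjamini-Hochberg adjustment). Slc25a32, which carries folate and FAD (chromosome 15, 39091231 to 39112716, minus strand), was far less abundant, at 19.5, 20.9 and 21.5 CPM in WT and 4.83, 6.09 and 3.94 CPM in KO. It was the second most lowered carrier, by a log2 fold change of -2.08 ± 0.21 (SE; edgeR, Benjamini-Hochberg adjusted p = 5.80e-05).

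The carriers of coenzyme A and related cofactors moved the same way by about 2-fold. Slc25a42, which takes coenzyme A into mitochondria, had 141, 114 and 87.6 CPM in WT and 69.7, 34.3 and 55.5 CPM in KO (log2 fold change -1.10 ± 0.25, SE). Slc25a16, also linked to coenzyme A in the matrix, had 30.6, 33.5 and 45.4 CPM in WT and 14.6, 14.8 and 18.7 CPM in KO (log2 fold change -1.17 ± 0.19, SE). Slc25a17, the peroxisomal member of the family, which carries coenzyme A, FAD and NAD, had 120.1, 148 and 108 CPM in WT and 57.1, 80.3 and 63.5 CPM in KO (log2 fold change -0.91 ± 0.16, SE). None of the 3 overlapped between genotypes, and their adjusted p values from edgeR with Benjamini-Hochberg adjustment were 0.006, 0.00086 and 0.00162. Slc25a26, the S-adenosylmethionine carrier, fell less, from 54.1 ± 2.49 to 39.6 ± 4.02 CPM (SD, n = 3; log2 fold change -0.45, edgeR, Benjamini-Hochberg adjusted p = 0.0148). Its call was lost with library size alone (-0.03) and with muscle RNA as a covariate (-0.46, edgeR, Benjamini-Hochberg adjusted p = 0.115), and its 3′ end overlaps Lrig1 on the opposite strand, which was itself lower (-0.49). The pyrimidine nucleotide carriers Slc25a33 and Slc25a36 had no call, at log2 fold changes of 0.15 and -0.52, and Slc25a36 was called lower after quantile normalization (-0.98).

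Among the di- and tricarboxylate carriers, all 5 tested members passed the test, with 3 lower and 2 higher, where 22.3% of all genes were lower and 23.7% higher. Membership of this group, that of Slc25a34 and Slc25a35 included, was assigned by a list, and no transport was measured here. The group summed to 1310, 1473 and 1437 CPM in WT and to 292, 624 and 312 CPM in KO, with KO mouse 2 highest. Slc25a1, which exports citrate to the cytosol (chromosome 16, 17925223 to 17928219, minus strand), accounted for most of this, at 934, 1101 and 1102 CPM in WT and 89.0, 363 and 68.6 CPM in KO. KO mouse 2 stood well above the other KO mice and well below the WT mice. The log2 fold change was -2.60 ± 0.55 (SE; edgeR, Benjamini-Hochberg adjusted p = 0.00409), the most negative of the family, and -3.73 without that mouse. Among the KO mice, KO mouse 2 had the highest sums of macrophage markers and of general adipocyte markers (23970 CPM, against 20270 and 18940). It also had the lowest sum of brown adipocyte markers. Whether any of these had a part in it was not tested.

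The other members of the group moved less or in the opposite direction. Slc25a11, the oxoglutarate/malate carrier of the malate-aspartate shuttle, had 226, 229.5 and 179.9 CPM in WT and 99.7, 94.9 and 113 CPM in KO (log2 fold change -1.04 ± 0.13, SE). Slc25a35 had 124, 125 and 126 CPM in WT and 45.3, 48.2 and 70.2 CPM in KO (log2 fold change -1.19 ± 0.16, SE). Both were lower without overlap between genotypes, at adjusted p = 0.000207 and 0.000373 from edgeR with Benjamini-Hochberg adjustment. Slc25a35 shares its 3′ end with Rangrf on the opposite strand, and Slc25a11 overlaps Rnf167 away from its 3′ end. Rangrf (-0.96) and Rnf167 (-0.59) were also lower, and the strand setting of the counting is not given in the sources used here, so reads of overlapping genes cannot be told apart. Slc25a10, the dicarboxylate carrier, had 13.0, 10.2 and 10.9 CPM in WT and 22.1, 62.2 and 14.5 CPM in KO. KO mouse 2 was again the highest, and the log2 fold change of 1.51 ± 0.47 (SE; edgeR, Benjamini-Hochberg adjusted p = 0.0259) became 0.67 without it. Leaving out any 1 of the WT mice ended the Slc25a10 call, with values between 1.41 and 1.61. Slc25a34, whose closest relative in the family is Slc25a35, had 12.5, 7.74 and 18.1 CPM in WT and 35.2, 55.3 and 44.8 CPM in KO, all above WT (log2 fold change 1.82 ± 0.28, SE; edgeR, Benjamini-Hochberg adjusted p = 0.000794). With the muscle score as a covariate it was 2.54.

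Slc25a20 (chromosome 9, 108662088 to 108684641, plus strand) was the carrier with the smallest adjusted p. It exchanges acylcarnitines for carnitine and thereby feeds fatty acid oxidation. Its level was 863.5, 871 and 879.6 CPM in WT and 250, 234 and 246 CPM in KO, a difference far beyond the spread within either genotype. The mean fell from 871 ± 8.06 to 243 ± 8.45 CPM (SD, n = 3), a log2 fold change of -1.84 ± 0.10 (SE; edgeR, Benjamini-Hochberg adjusted p = 4.51e-06). Slc25a45, grouped here with it, was a scarce transcript that moved upward, with 4.20, 3.82 and 5.74 CPM in WT and 7.91, 11.9 and 6.71 CPM in KO (log2 fold change 0.94 ± 0.30, SE; edgeR, Benjamini-Hochberg adjusted p = 0.0282). This call was lost without WT mouse 1 or 2 or KO mouse 1 or 2, and the highest value was again that of KO mouse 2.

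Amino acid carriers moved in both directions, with 3 of 6 tested members lower and 1 higher, where 22.3% of all genes were lower and 23.7% higher. Slc25a44, the branched-chain amino acid carrier of brown fat (chromosome 3, 88410498 to 88425139, minus strand), had 212, 209 and 247 CPM in WT and 72.1, 74.2 and 59.8 CPM in KO. The genotypes were separated by a wide gap, with a log2 fold change of -1.70 ± 0.13 (SE; edgeR, Benjamini-Hochberg adjusted p = 1.46e-05). Slc25a12 (chromosome 2, 71271063 to 71367749, minus strand) imports glutamate in exchange for aspartate and moved opposite to it. It had 4.10, 5.73 and 5.35 CPM in WT and 23.3, 15.8 and 36.0 CPM in KO, with every KO mouse above every WT mouse. Its log2 fold change of 2.32 ± 0.31 (SE; edgeR, Benjamini-Hochberg adjusted p = 0.000316) was the highest of the family. The KO mice kept the same order as in muscle markers, WT mouse 2 with its 404 CPM of muscle markers had 5.73 CPM of Slc25a12, and with the muscle score as a covariate the log2 fold change was 1.80 (edgeR, Benjamini-Hochberg adjusted p = 0.0203).

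The remaining called amino acid carriers fell modestly. Slc25a15, the ornithine carrier, had 33.4, 30.4 and 27.9 CPM in WT and 16.9, 17.5 and 19.3 CPM in KO (log2 fold change -0.77 ± 0.14, SE; edgeR, Benjamini-Hochberg adjusted p = 0.0017). Slc25a22, a glutamate carrier, had 132, 136 and 94.9 CPM in WT and 83.6, 87.1 and 85.2 CPM in KO (log2 fold change -0.50 ± 0.14, SE; edgeR, Benjamini-Hochberg adjusted p = 0.0167). WT mouse 3 came close to the KO mice, and the Slc25a22 call was lost without WT mouse 1 or 2 or KO mouse 1. Both calls were lost with library size alone (-0.35 and -0.09). Slc25a38, the glycine carrier used for heme synthesis, had no call, though its values did not overlap (15.0, 15.2 and 15.0 CPM in WT, 12.1, 11.0 and 11.2 CPM in KO), and it was called lower after quantile normalization (-0.60). Summed, the amino acid carriers made up 5.34% of the pool in WT and 5.44% in KO.

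**Figure D3:**
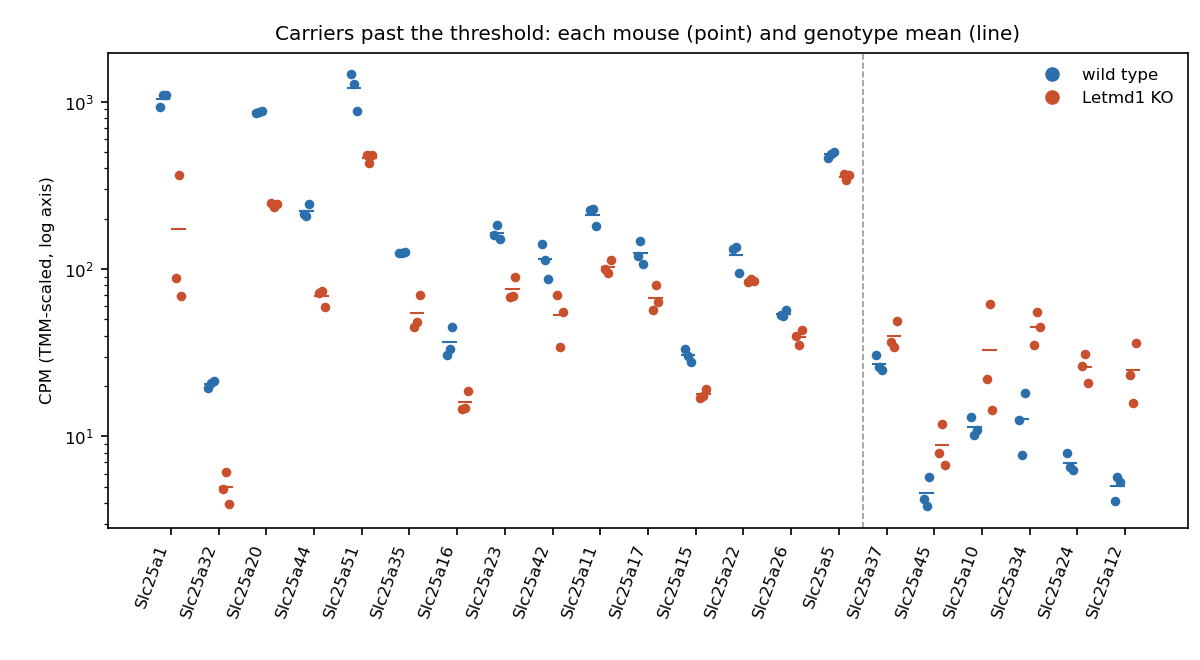
CPM (log axis) of 21 carriers past the threshold in each of the 6 mice (points) with the mean of each genotype (short lines), lower carriers left of the dashed line and higher carriers right of it. In every column the WT and KO points are apart, the raised carriers all lie under 100 CPM, and KO mouse 2 stands apart from the other KO mice in Slc25a1 and Slc25a10.

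The ADP/ATP and phosphate carriers, which supply ATP synthase with its substrates and return ATP to the cytosol, had KO sums somewhat below the WT sums, without overlap. They summed to 1604, 1618 and 1571 CPM in WT and 1401, 1189 and 1477 CPM in KO, a ratio of 1.18 that turned to slightly higher in KO with library size alone (log2 0.18), and their share of the pool went from 21.5% to 34.6%. Slc25a5, the widely expressed ADP/ATP carrier (chromosome X, 36795651 to 36798807, plus strand), had 464, 491 and 500.0 CPM in WT and 369, 340.5 and 363 CPM in KO. The genotypes did not overlap and the log2 fold change was -0.44 ± 0.10 (SE; edgeR, Benjamini-Hochberg adjusted p = 0.00673). The Slc25a5 call was lost with library size alone (-0.02), with quantile normalization (-0.08) and with the muscle covariate (-0.47). A processed pseudogene of Slc25a5 is annotated and multiple alignments were counted, so reads may have been shared with it. Slc25a4 had 658, 647 and 578 CPM in WT and 510.1, 378.5 and 586 CPM in KO and overlapped (log2 fold change -0.35 ± 0.16, SE). Its highest KO value was in KO mouse 3, the mouse with the most muscle RNA, and without that mouse it was called lower (-0.50). Slc25a3 had 481.5, 479.7 and 493 CPM in WT and 522, 470.3 and 528 CPM in KO, overlapping, with a log2 fold change of 0.06 ± 0.10 (SE). It was called higher with library size alone (0.48) and with quantile normalization (0.48), where the median of all genes was 0.45 and -0.05.

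The calcium-regulated ATP-Mg/phosphate carriers, which adjust the adenine nucleotide pool of the matrix, moved in opposite directions. Slc25a23, the most abundant of them in WT BAT, had 159, 183 and 151.5 CPM in WT and 68.1, 69.2 and 90.2 CPM in KO (log2 fold change -1.11 ± 0.14, SE; edgeR, Benjamini-Hochberg adjusted p = 0.000217). Slc25a24 (chromosome 3, 109123149 to 109168457, plus strand) had 7.98, 6.57 and 6.26 CPM in WT and 26.3, 31.2 and 20.8 CPM in KO (log2 fold change 1.90 ± 0.20, SE; edgeR, Benjamini-Hochberg adjusted p = 8.94e-05). Neither carrier overlapped between genotypes, and Slc25a23 overlaps Crb3 on the opposite strand away from its 3′ end. KO mouse 2 was the highest for Slc25a24, and its sums of macrophage and general adipocyte markers were the highest of the KO mice. Whether either had a part in it was not tested. The third, Slc25a25, had no call (1.94, 2.65 and 8.08 CPM in WT, 10.1, 10.1 and 7.23 CPM in KO) but was called higher without WT mouse 3 (1.97), by DESeq2 (1.11), with no filter (1.12) and with library size alone (1.55). In sum this group fell from 176 ± 14.2 to 111 ± 6.88 CPM (SD, n = 3), since the rise of Slc25a24 was small in CPM.

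Iron and glutathione carriers overlapped between genotypes in their summed level, with 634, 567 and 676 CPM in WT and 615, 509 and 606 CPM in KO. Slc25a39, a glutathione carrier and the most abundant of the 4, had 552, 491 and 594 CPM in WT and 518, 414 and 499 CPM in KO (log2 fold change -0.20 ± 0.13, SE), which turned positive with library size alone and with quantile normalization. Slc25a37 (mitoferrin-1), the iron importer best known from red cell precursors, was the only called member, at 30.8, 26.0 and 25.0 CPM in WT and 36.6, 34.4 and 48.9 CPM in KO (log2 fold change 0.56 ± 0.17, SE; edgeR, Benjamini-Hochberg adjusted p = 0.0228). The Slc25a37 call was lost without WT mouse 2 or 3 or KO mouse 3 and with the muscle covariate (0.50). The sums of erythroid markers overlapped between genotypes, and whether red cell content had a part in it was not tested. Slc25a28 (mitoferrin-2) had 41.5, 41.2 and 50.6 CPM in WT and 52.9, 54.0 and 51.9 CPM in KO, without a call, and was called higher with library size alone (0.67), quantile normalization (0.35) and without WT mouse 3 (0.34). The uncoupling-like carriers Slc25a14 and Slc25a27 and the outer-membrane member Slc25a46 also had no call, and Slc25a46 had 165, 157 and 121 CPM in WT and 116, 88.4 and 127 CPM in KO. It was called lower by DESeq2 (-0.43), without WT mouse 3 (-0.55) and without KO mouse 3 (-0.53). Over all 14 tested carriers without a call, log2 fold changes lay between -0.54 and 1.13, the smallest adjusted p was 0.0627 (edgeR, Benjamini-Hochberg) and 3 had an unadjusted p under 0.05.

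Some carriers have a relative with the same or a similar substrate, and the share of the first within each pair was compared for 9 pairs by two-sided exact permutation tests, which cannot go below p = 0.1 with 3 mice against 3. Slc25a10 made up 5.45%, 4.25% and 5.74% of the Slc25a10 and Slc25a11 transcripts in WT and 18.1%, 39.6% and 11.3% in KO, all above WT (exact permutation p = 0.1, adjusted 0.3). Slc25a15 held 95.3% ± 1.63 of the pair with Slc25a29 in WT and 90.4% ± 0.278 in KO (SD, n = 3; exact permutation p = 0.1, adjusted 0.3). Slc25a33 held 92.2% ± 1.93 of the pair with Slc25a36 in WT and 95.2% ± 0.452 in KO (SD, n = 3; exact permutation p = 0.1, adjusted 0.3). The other 6 pairs overlapped. Slc25a4 was 56.4% ± 2.55 of the ADP/ATP carrier pair in WT and 57.5% ± 4.58 in KO (SD, n = 3; exact permutation p = 0.8). Slc25a12 already led its pair with Slc25a13 in WT BAT, at 89.3% ± 4.90, and had 91.7% ± 9.76 in KO (SD, n = 3).

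Of the machinery that inserts carriers into the inner membrane, 5 of 6 measured genes of a list of 7 were lower, with a median log2 fold change of -0.71, where 22.3% of all genes were lower, 28.7% of those between 20 and 100 CPM and 46.5% of those at 100 CPM or more. Timm22, the pore of the translocase, had 150.4, 128 and 199 CPM in WT and 91.2, 87.3 and 89.7 CPM in KO (log2 fold change -0.83). The small chaperones of the intermembrane space followed, with Timm9 at -1.01, Timm10b at -0.95 and Timm10 at -0.59, as did the receptor Tomm70a at -0.56. Agk had no call (4.68 ± 2.27 CPM in WT and 5.52 ± 2.16 CPM in KO, SD, n = 3; log2 fold change 0.24).

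Of 18 other transporters of the mitochondrial membranes, 10 were lower and 4 higher, with a median log2 fold change of -0.61, where 22.3% of all genes were lower and 23.7% higher. By level, 46.5% of genes at 100 CPM or more were lower, 28.7% between 20 and 100 CPM and 10.6% under 20 CPM. Ucp1, the proton carrier of thermogenesis, is a family member that the symbol rule left out. It had 6268, 5841 and 6874 CPM in WT and 415, 255 and 476 CPM in KO (log2 fold change -4.05). In each WT mouse its level was below the sum of all carriers that met the rule, and in each KO mouse it was far below that sum. Both subunits of the pyruvate carrier were lower (Mpc1 -1.75, Mpc2 -2.21), as were Ucp3 (-1.95), Sfxn5 (-2.49), Mtch2 (-1.35), Abcb8 (-1.04) and Abcb10 (-1.14). Of the outer-membrane pores, Vdac1 (-0.61) and Vdac2 (-0.62) were lower and Vdac3 (0.66) was higher. Ucp2 (1.52), Sfxn3 (1.54) and Sfxn2 (0.79) were also higher.

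Enzymes that handle the same substrates on either side of the membrane were lower in 8 and higher in 7 of 19 cases, where 22.3% of all genes were lower and 23.7% higher. At 100 CPM or more, 46.5% of genes were lower and 19.1% higher, and between 20 and 100 CPM 28.7% and 19.9%. The enzymes of acylcarnitine metabolism fell with Slc25a20, with Cpt1b at -1.56, Cpt2 at -1.40 and Crat at -1.45. Acly, which cleaves the citrate that Slc25a1 exports, had 2078, 3567 and 4351 CPM in WT and 217, 856 and 202 CPM in KO (log2 fold change -2.97), with KO mouse 2 again the highest, and Cs, which makes citrate, had no call (-0.39). In the malate-aspartate shuttle the aspartate side was higher and the malate side lower. Slc25a12, Got1 (27.6 ± 3.13 to 156 ± 43.5 CPM, SD, n = 3; log2 fold change 2.50) and Got2 (1.37) were higher, and Slc25a11, Mdh1 (-1.24) and Mdh2 (-0.91) were lower. Like Slc25a12, Got1 had the same order in the KO mice as the muscle markers (165.8, 108.7 and 194.1 CPM). Got2 did not (135.5, 104.4 and 127.5 CPM). Got1 in WT was 24.0, 29.7 and 29.2 CPM. Whether muscle RNA had a part in the Got1 change was not tested.

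For folate the carrier and the enzymes went opposite ways. Slc25a32 was lower, while Mthfd2, which uses folate in the matrix, had 8.19, 3.50 and 9.52 CPM in WT and 114, 74.2 and 94.4 CPM in KO (log2 fold change 3.75), and Shmt2 was higher (0.58). Around branched-chain amino acids, Slc25a44 and Bckdha (-0.77) were lower, Bcat2 was higher (0.71) and Bckdhb had no call. Of the heme enzymes, Fech was lower (-0.63) and Alas1 had no call, and of the glutathione enzymes Gclc (0.47) and Gss (0.93) were higher without a called change of Slc25a39 or Slc25a40. These lists were compared by their counts and values alone.

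**Figure D4:**
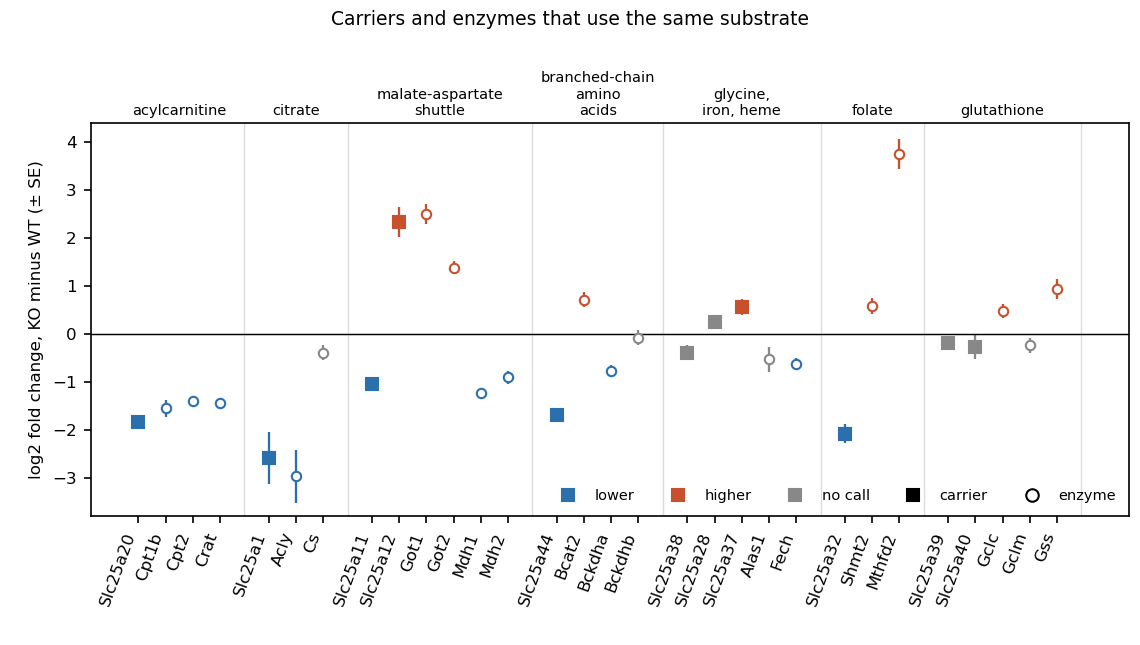
Log2 fold change, KO minus WT, with its standard error (vertical bars), of carriers (squares) and of enzymes that use the same substrate (open circles), in 7 substrate sets. Carrier and enzymes are low together for acylcarnitine, whereas Slc25a32 lies at -2.08 and Mthfd2 at 3.75 in the folate set.

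The 11 carriers that did not pass the filter were scarce in BAT, where 3 counts correspond to between 0.176 and 0.397 CPM and cover counting error only. Slc25a30 and Slc25a54 had 0 counts in all 6 mice, and another 4 carriers had at most 3 counts in any mouse. Slc25a41 and Slc25a43 had 0 counts in every WT mouse, and with Slc25a30 and Slc25a54 they were the lowest in WT BAT. Slc25a48 had 2, 5 and 5 counts in WT and 0, 0 and 1 in KO, and Slc25a13, the second aspartate/glutamate carrier, had 3, 5 and 8 counts in WT and 7, 29 and 14 in KO. These carriers were removed by the filter on low counts, and no call is given for them.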

How the data were processed

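QuantSeq 3′ libraries of BAT from 3 WT and 3 Letmd1 KO mice, grouped by genotype as labelled, were read single-end for 75 bases. The authors aligned reads by Bowtie2 and used bedtools coverage to assign them to genes, keeping reads with multiple alignments, and the deposited values are raw counts; the labels give build mm10, and the annotation and strand setting are not given in the sources used here. The quantile normalization named in the paper is not in these counts. All rows were fitted in R 4.3.3 with edgeR 4.0.16: default filter (minimum count 10, minimum total 15), TMM scaling, quasi-likelihood test, Benjamini-Hochberg adjustment over 12995 genes, threshold 0.05. Standard errors are approximate, the log2 fold change divided by the root of F. CPM used TMM-scaled library sizes, whose factors were between 0.852 and 0.886 in WT and between 1.13 and 1.17 in KO, so the scaling can shift every fold change alike.

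Pairs of mice of 1 genotype differed beyond sampling noise (chi-square divided by its degrees of freedom, 11.5 to 34.0). The steps were run on simulated counts in which few genes were changed, with equal odds of up and down. Such counts do not test the scaling for these data, where 46.0% of genes were called. Named carriers are those past the threshold and the highest and lowest in WT, except that 1 carrier is not reported here by name. The members and lists were chosen with earlier results of these data known. Positions came from GENCODE vM21 on GRCm38 and promoters from RefSeq. The alternatives were library size alone, limma 3.58.1 after quantile normalization, no filter, a stricter filter (mean of 50 counts), a 2-fold limit, DESeq2 1.42.0, the replicate number as a block, the muscle marker score as a covariate and leaving out each mouse.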

Additional observations from a re-analysis of the deposited data

How the results depend on the processing

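None of the 22 called carriers changed direction under the alternatives run. Omitting the filter, a stricter filter (mean of 50 counts) and DESeq2 kept all 22 calls. With library size alone, the higher carriers became 10, the median of the carriers -0.007 and the log2 ratio of the summed CPM -0.51 (-0.93 with TMM), while the median of all genes went to 0.45. The calls of Slc25a15, Slc25a22, Slc25a26 and Slc25a5 were then lost, and those without a call that turned positive were Slc25a46 (0.005), Slc25a38 (0.022), Slc25a4 (0.071), Slc25a40 (0.15) and Slc25a39 (0.23), as did the summed log2 ratios of the ADP/ATP and phosphate carriers (0.18), the iron and glutathione carriers (0.30) and the outer-membrane member (0.002). After quantile normalization Slc25a22, Slc25a5, Slc25a45 and Slc25a10 lost their calls, and Slc25a4 (0.079), Slc25a39 (0.24), Slc25a27 (-0.80), Slc25a29 (-0.27) and Slc25a14 (-0.008) changed sign. The muscle covariate turned Slc25a27 (-0.36) and ended the calls of Slc25a26, Slc25a5 and Slc25a37. Their log2 fold changes went from -0.45 to -0.46, from -0.44 to -0.47 and from 0.56 to 0.50. Over all genes, calls fell from 22.3% lower and 23.7% higher to 13.5% and 13.8%. The muscle score (mean log2 CPM) was -1.16, 3.96 and -1.18 in WT and 3.985, 3.58 and 5.59 in KO, so score and genotype cannot be fully told apart. The cause was not tested in any of these cases.

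Leaving out single mice gave between 15 and 18 lower and between 3 (without WT mouse 2) and 6 higher carriers. Of all genes, between 17.7% and 21.4% were then lower and between 18.8% and 22.4% higher. Medians of the carriers lay between -0.50 and -0.38 and summed log2 ratios between -0.96 and -0.90. The fold change of Slc25a27 ranged from -0.32 to 0.34 and turned without WT mouse 3 or KO mouse 1 (-0.25), and that of Slc25a33 from -0.072 to 0.38, turning without WT mouse 3. The KO minus WT difference in pair share, in percentage points, turned for Slc25a4 with Slc25a5 (-1.04 to 3.51, negative without WT mouse 3 or KO mouse 3), Slc25a12 with Slc25a13 (-0.689 to 7.99, negative without WT mouse 3 or KO mouse 1 or 3), Slc25a39 with Slc25a40 (-0.0708 to 0.341, negative without WT mouse 1) and Slc25a24 with Slc25a25 (-1.83 to 16.6, negative without WT mouse 3).

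Pairing by replicate number was not seen, as deviations from the genotype means correlated at 0.069, -0.11 and -0.087 for numbers 1 to 3. The largest correlation was between WT mouse 2 and KO mouse 3 (0.19). Deviations from a mean of 3 mice depend on each other, so these values cannot exclude pairing. With the replicate number as a block, 16 carriers were lower and 5 higher, where 20.9% and 22.2% of all genes were. Of the 22 calls Slc25a45 was lost (0.92, edgeR, Benjamini-Hochberg adjusted p = 0.0537). Of the scarce carriers without a call, Slc25a14 was called higher with library size alone (0.88) and Slc25a47 lower after quantile normalization (-1.09).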
